A study of Mus musculus with 24 samples.

Results

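The collagens, laminins, integrins and their matrix partners were followed in the prefrontal cortex (PFC). They were the genes of the normalized count table whose symbols name a collagen chain, a laminin chain or an integrin subunit, together with Nid1, Hspg2, Sparc, Fn1 and Agrn. The rule found 45 of the 14074 genes in the table, namely 19 collagens, 10 laminins, 11 integrins and 5 partners. RNA-seq had been performed on bulk PFC of 24 adult male C57BL/6 mice, 1 library per mouse, in 6 groups of 4. Control animals had not been defeated, whereas PS (passive coping) and AS (active coping) animals came from 30 days of social defeat by CD1 males and had been sorted into the 2 phenotypes by clustering of their behavior. In each phenotype 4 mice received saline and 4 received 2 mg/kg of dexamethasone (DEX, a synthetic agonist of the glucocorticoid receptor), and tissue was taken 6 h after the injection. Saline and DEX libraries of a phenotype are different mice, and every mouse had been injected, so the saline groups are injected controls.

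Collagen and laminin chains are made as separate gene products and assemble as trimers before they are secreted. In the brain, type IV collagen, laminin, nidogen, perlecan (Hspg2) and agrin form the basement membrane that lies between vessel wall and astrocyte endfeet and beneath the meninges, whereas fibrillar collagens are mostly products of fibroblasts of the meninges and large vessels. Integrins are receptors of an alpha and a beta subunit that bind this matrix and link it to the actin cytoskeleton. Glucocorticoids are known to act on matrix production in many tissues.

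The most closely linked members are Col4a1 and Col4a2, the chains of the main collagen IV trimer, which lie head to head on chromosome 8. On GRCm38, Col4a1 runs on the minus strand from 11312826 and Col4a2 on the plus strand from 11312805, so that their first exons overlap by 22 bp (chr8:11312805-11312826). The overlap is shown because both genes rose after DEX in control animals, and it is written on the plus strand with a GC box (GGGCGG) in capitals, from RefSeq on GRCm38.p6.
Overlap of the first exons of Col4a1 and Col4a2: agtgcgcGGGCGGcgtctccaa

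The promoter windows of the 2 genes, 250 bases before to 50 bases after the start site, overlap by 78 bp and together cover 522 bp with 73.95% G and C. These 522 bp held 3 GC boxes and 2 CCAAT boxes on either strand, no TATAAA and no match to the glucocorticoid receptor element, searched as GNACA and TGTNC separated by 3 bases of any kind, or to its single arm TGTTCT. The other sequence shown is that of Itgam. Among members whose upstream bases could be printed, Itgam had the lowest adjusted p for a fall after DEX averaged over the phenotypes. The sequence covers the 250 bases before the start site on the plus strand, chr7:128062390-128062639, has 49.6% G and C, and has its GC box (read as CCGCCC on this strand) in capitals.
Upstream of Itgam: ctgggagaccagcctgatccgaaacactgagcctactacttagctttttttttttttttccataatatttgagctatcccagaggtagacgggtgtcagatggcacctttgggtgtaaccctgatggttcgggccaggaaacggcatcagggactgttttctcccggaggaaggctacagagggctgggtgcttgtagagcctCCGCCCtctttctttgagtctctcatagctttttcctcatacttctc

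Of the 45 members, 31 had at least 1 window in the RefSeq promoter table, 34 windows in all. The GC box was found in 27 of the 34 windows, against 35.66% of all 32851 windows of the table. CCAAT was in 10 of them (37.41% of all windows), TATAAA in 1 (13.62%) and TGTTCT in 3 (18.97%), those of Itgb1, Lama2 and Sparc. The full element was in 0 of the 34 windows and in 156 of all windows (0.475%). Both strands were searched, the single arm can share letters with the full element, and these are matches of letters within the windows, not binding sites.

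Levels were compared per kilobase of exon, as normalized count averaged over the 24 libraries. Sparc, a secreted protein that binds collagen, was the highest member (981 per kb), followed by Agrn, the proteoglycan agrin (706 per kb), the beta subunits Itgb1 (345 per kb) and Itgb5 (326 per kb), and Col4a2 (319 per kb). Below them lay Col6a1 (258 per kb), Fn1, the fibronectin gene (240 per kb), Itgav (238 per kb) and Col4a1 (209 per kb). The lowest were Lama1 (19.6 per kb) and Col8a2 (20.1 per kb). Among the laminins, Lamb2 (187 per kb) and Lamc1 (121 per kb) were the highest and the alpha chains ran from 19.6 per kb (Lama1) to 39.0 per kb (Lama5). All 45 members had at least 10 reads in each library, and none was filtered out of the tests. Across the 24 libraries the range was narrowest for Itga3 (1.43-fold from lowest to highest) and widest for Col1a1 (5.13-fold) and Lama1 (4.82-fold).

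The libraries held 21121869 to 59439645 reads on genes (median 24420130). The medians of the saline and DEX groups were 22869703 and 23492572 in controls and 24008146 and 24187702 in PS. In AS they were 34242532 and 37876626, so that by median the AS libraries were the deepest. A fit with library size as a covariate is among the alternatives given below. Fkbp5, an early target of the glucocorticoid receptor, separated the injections in every phenotype, from 761 to 1088 normalized counts in the saline libraries and from 2931 to 4198 in the DEX libraries. Several libraries stood apart over the members. The DEX-treated PS mouse 34 was the lowest of all 24 libraries for 16 of the 45 members, and the DEX-treated AS mice 60 and 42 were the lowest for 11 and 7. The DEX-treated control mouse 101, the saline-treated AS mouse 8 and the saline-treated PS mouse 62 were the highest for 9, 9 and 8. The saline-treated AS mouse 44 was the lowest of its own group for 29 members.

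**Figure D1:**
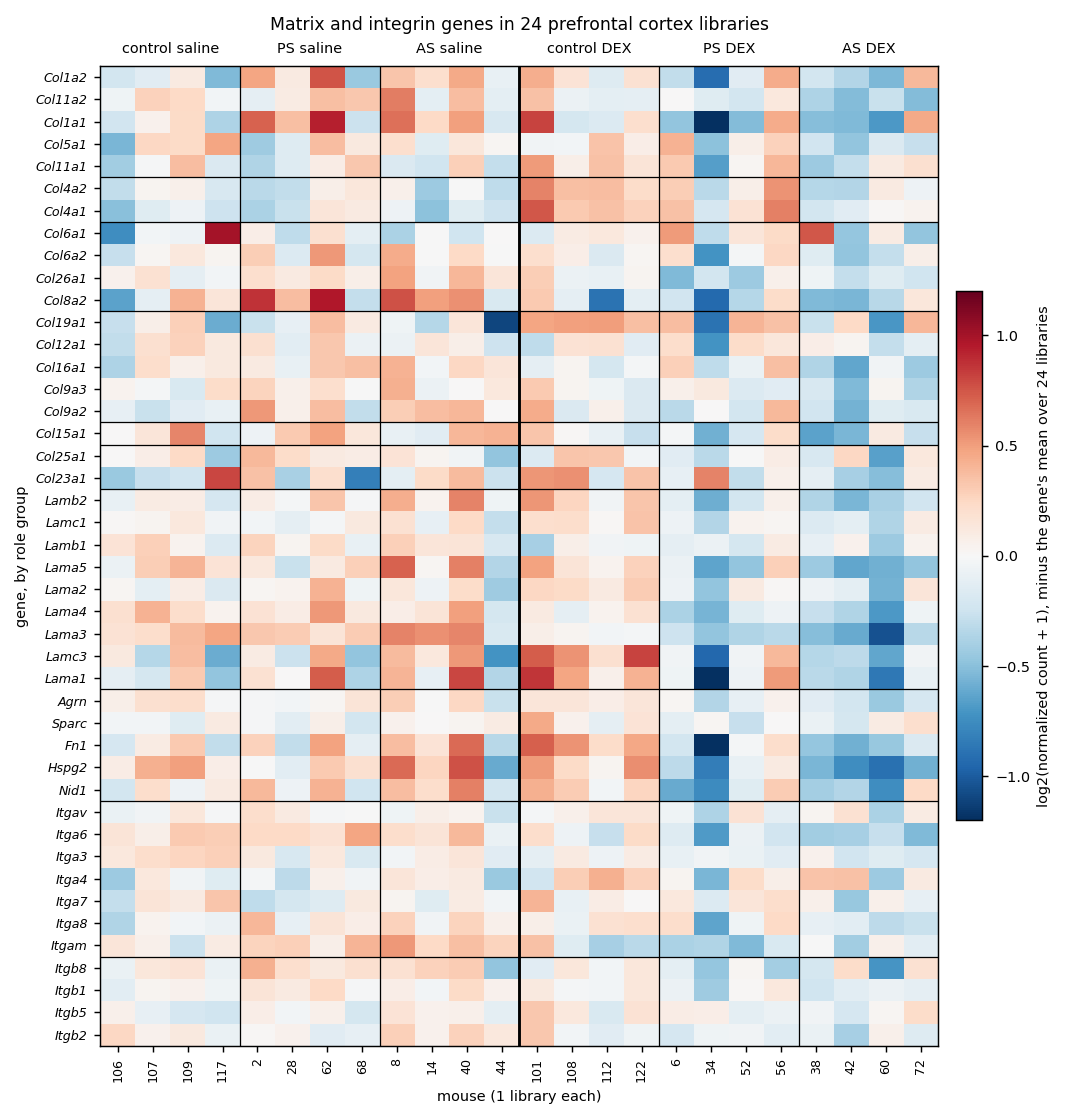
Each row is 1 gene, grouped by role, and each column is 1 of the 24 libraries, with saline groups to the left of the thick line and DEX groups to the right; color is log2(normalized count + 1) minus the mean of the gene over the 24 libraries. The Col4a1 and Col4a2 rows are red in the DEX-treated controls, most rows are blue in the DEX-treated AS libraries, and the PS mouse 34 stands out as a blue column.

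Vascular, meningeal and microglial marker lists were read in the same libraries, because such cells are known to make many of these members. All 8 endothelial and all 8 mural markers of the lists, 7 of 8 markers of leptomeningeal fibroblasts and all 6 microglial markers were in the table, and none of them was at 0 in any library. Of the choroid plexus list, 0 of 5 markers were in the table. The markers of pyramidal neurons, the list that defines the tissue as cortex, summed to between 151561 and 218621 normalized counts per library. In bulk tissue fewer cells of a type and less RNA per cell cannot be told apart.

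The first question was whether chronic defeat alone had moved these genes. In saline-treated animals 0 of 45 members were called in PS against control (limma, Benjamini-Hochberg adjusted p under 0.1), where 1.51% of all genes were. The same held for AS against control (0.156% of all genes called) and for AS against PS (0% of all genes called). At an unadjusted p under 0.05 the numbers of members were 1, 3 and 1, against 13.1%, 11% and 4.77% of all genes, and edgeR and DESeq2 also called 0 members in each. Against control, the log2 differences of the 45 members spanned -0.25 to 0.53 for PS and -0.21 to 0.45 for AS. Both contrasts use the same saline-treated controls.

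The members that passed the unadjusted threshold are named here after their values were seen, except Itgam and Itgb2. Itga3, which pairs with Itgb1 to bind laminin, had a log2 difference of -0.25 ± 0.09 SE in PS and -0.21 ± 0.09 SE in AS (limma adjusted p = 0.194 and 0.384). Itgam, the alpha subunit of the complement receptor of microglia and macrophages, gave 138, 172, 176 and 182 normalized counts in saline-treated controls, 173, 199, 201 and 219.7 in PS and 195, 199, 212 and 236 in AS. The AS values lay above those of the controls without overlap, at a log2 difference of 0.33 ± 0.14 SE (limma adjusted p = 0.386). Col9a2, a chain of the fibril-associated collagen IX, was likewise higher than control in all 4 AS libraries (log2 difference 0.42 ± 0.17 SE, limma adjusted p = 0.368). Groups without overlap in this direction were found for 3.45% of all genes. In AS against PS the difference of Itgb2, the beta subunit that pairs with Itgam, was 0.23 ± 0.11 SE (limma adjusted p = 0.934).

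The second question was how the members responded to DEX in each phenotype. In control animals Col4a1 and Col4a2 rose and 0 members fell, so that 2 of 45 members were called where 6.49% of all genes were (4.03% higher and 2.46% lower). In PS animals 5 members fell and 0 rose, against 5.36% of all genes called in either direction, 2.62% lower and 2.74% higher. In AS animals 14 members fell and 0 rose, against 8.77% of all genes in either direction, 4.95% lower and 3.82% higher. The 5 that fell in PS were Itga6, Itgam, Lama3, Lama4 and Col26a1. All 5 also fell in AS, which is 100% of the PS list and 35.71% of the AS list. The same overlap over all genes was not counted, so these shares have no background to be read against. The PS and AS contrasts share no libraries, but both take their residual variance from the same fit and are not fully independent. In AS the calls of Lama4, Itgam, Itgb2, Col16a1, Col26a1, Col9a2, Col9a3 and Agrn were lost when the saline-treated mouse 8 or the DEX-treated mouse 42 was left out (adjusted p 0.107 to 0.340 and 0.118 to 0.306), which left 6 calls, and all of these but Col16a1 were lost without the saline-treated mouse 40, which left 7. Without the DEX-treated mouse 60 the calls of Lama4 and Agrn were lost (adjusted p 0.143 and 0.158). Agrn, Itgb2 and Col9a3 were also lost with library size as a covariate (adjusted p 0.103 to 0.132), which left 11 calls, and these and Lama4 and Col26a1 when only the AS libraries were fitted (adjusted p 0.117 to 0.243). That fit called Fn1 (adjusted p = 0.086) and made 10 calls in all. In PS the number of calls was 3 without mouse 62 or mouse 6 and 8 without mouse 56.

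The median log2 difference over the 45 members was 0.06 in controls, -0.18 in PS and -0.34 in AS, beside medians over all genes of -0.01, -0.0026 and 0.0024. Positive differences were found for 29, 11 and 6 of the 45 members, and for 6625, 6928 and 7131 of all 14074 genes. At an unadjusted p under 0.05 there were 7, 11 and 21 members, against 15.3%, 13.6% and 18.2% of all genes. Saline and DEX groups did not overlap for 4 members with higher and 2 with lower values after DEX in controls (5.81% and 4.32% of all genes), for 0 and 6 in PS (5.54% and 4.57%) and for 0 and 12 in AS (4% and 5.02%). Over the 10 laminins the medians were 0.10, -0.25 and -0.44, over the 5 partners 0.16, -0.37 and -0.56, over the 17 collagens other than IV 0.02, -0.18 and -0.39, and over the 11 integrins 0.03, -0.16 and -0.20. The 2 collagen IV chains stood on the other side, at medians of 0.57, 0.29 and 0.08. For 26 of the 45 members the difference was lower in AS than in PS and lower in PS than in controls. How many of all genes had this order was not counted. These are descriptions of the 45 genes, many of which are products of the same cells.

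**Figure D2:**
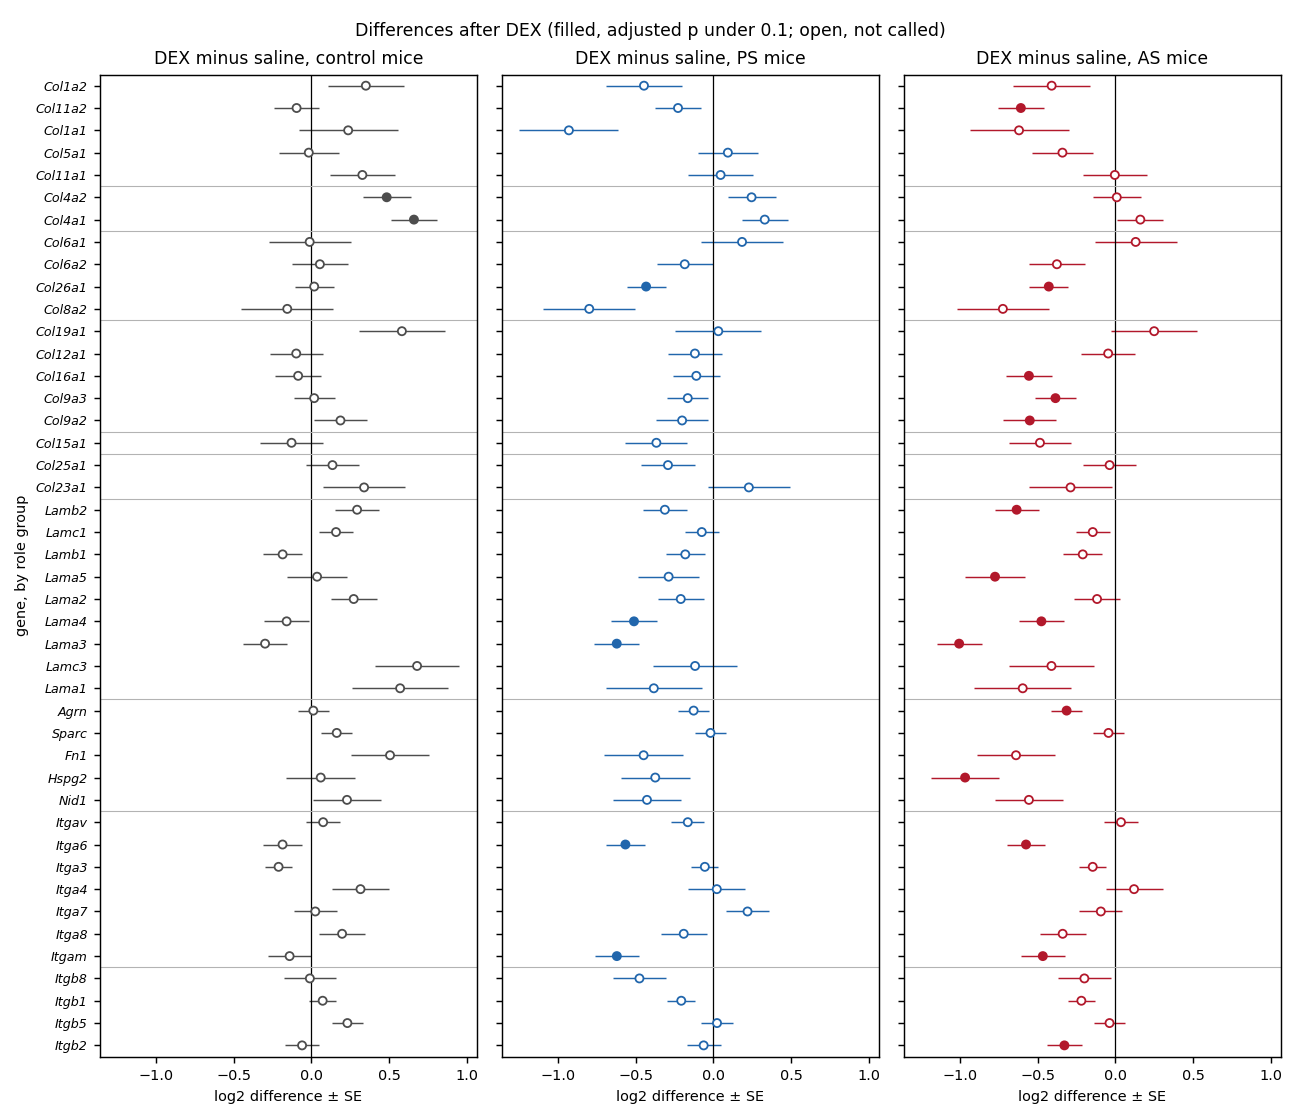
Log2 difference between DEX and saline for the genes in control, PS and AS mice (points, with bars of 1 SE from the limma model), filled where the adjusted p was under 0.1. Filled points lie to the right of 0 for Col4a1 and Col4a2 in controls and to the left of 0 for 5 genes in PS and 14 genes in AS.

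Collagen IV was the only role group with a called rise in the fit of all 24 libraries. The largest log2 difference in controls (0.68) was that of a laminin, which was not called. Col4a1 gave 1079, 1282, 1375 and 1456 normalized counts in saline-treated controls and 1844, 1896, 1938 and 2550.4 after DEX. Every DEX library lay above every saline library, a 1.58-fold difference (log2 0.66 ± 0.15 SE, limma adjusted p = 0.0076). In PS the values were 1171, 1266, 1641 and 1681 with saline and 1321, 1721, 1940.3 and 2318 with DEX, which overlapped (log2 difference 0.33 ± 0.15 SE, limma adjusted p = 0.304). In AS they were 1081, 1285, 1377 and 1461 with saline and 1311, 1382, 1539.8 and 1564 with DEX (log2 difference 0.16 ± 0.15 SE, limma adjusted p = 0.649). The highest control library was that of mouse 101, and without it the difference in controls was 0.55 (adjusted p = 0.047). Without the PS mouse 34, the lowest of the DEX-treated PS libraries, the difference in PS was 0.48 and passed the threshold (adjusted p = 0.070).

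Col4a2 followed the same order. Its values were 1689, 1808, 2125 and 2160.0 in saline-treated controls and 2414, 2656, 2683 and 3125 after DEX, again without overlap (log2 difference 0.48 ± 0.15 SE, 1.40-fold, limma adjusted p = 0.081). This call was lost without mouse 101 (log2 difference 0.42, adjusted p = 0.229) and without any of the control mice 106, 107, 117, 108 and 112 (adjusted p up to 0.234). Groups without overlap in this direction were found for 5.81% of all genes. In PS the log2 difference was 0.25 ± 0.15 SE (limma adjusted p = 0.561) and in AS 0.01 ± 0.15 SE (limma adjusted p = 0.987), with a 95% interval in AS of -0.31 to 0.33. Averaged over the 3 phenotypes, 2 of 45 members rose and 14 fell where 15.5% of all genes were called (7.46% higher and 8.01% lower), and the 2 that rose were Col4a1 (log2 0.38 ± 0.08 SE, limma adjusted p = 0.0027) and Col4a2 (log2 0.25 ± 0.09 SE, limma adjusted p = 0.077), the latter kept in 12 of the 24 fits without 1 library.

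Both chains are made by endothelial and mural cells, and the level per summed endothelial marker count was read in each library as a description. Col4a1 per summed endothelial markers was 0.202 to 0.240 in saline-treated and 0.259 to 0.342 in DEX-treated controls. In PS it was 0.222 to 0.268 and 0.335 to 0.425, and in AS 0.177 to 0.230 and 0.287 to 0.457. On this ratio no DEX library overlapped with a saline library of its phenotype, also in AS, where the count of Col4a1 itself was not called. For Col4a2 the same ratio was 0.296 to 0.348 with saline and 0.434 to 0.533 with DEX in PS, and 0.265 to 0.326 and 0.418 to 0.582 in AS. In controls the 2 groups just overlapped, with the highest saline and the lowest DEX library both at 0.339. The markers that form the denominator themselves differed between the groups. Their summed count had medians of 5986 with saline and 6991 with DEX in controls, 5988 and 5036 in PS, and 6277 and 3483 in AS. The mean of Col4a1 in AS was 1301 with saline and 1449 with DEX. How many of all genes separate on this ratio was not counted, and the part of the markers in it was not tested. The ratio of Col4a1 to Col4a2 was 0.639 to 0.709 in saline-treated and 0.714 to 0.816 in DEX-treated controls, which did not overlap. In PS it was 0.708 to 0.772 and 0.766 to 0.798, and in AS 0.667 to 0.766 and 0.688 to 0.853, with overlap in both.

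**Figure D3:**
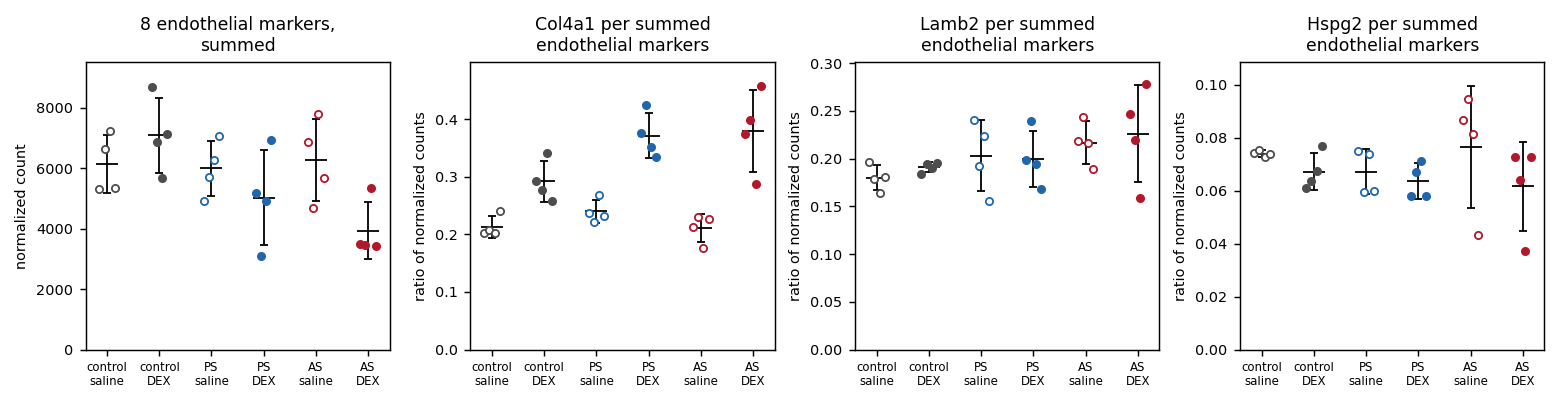
The first panel shows the summed normalized counts of 8 endothelial markers per library, and the other panels the normalized counts of Col4a1, Lamb2 and Hspg2 divided by that sum (points, 1 per mouse; open, saline; filled, DEX; bars, mean ± SD, n = 4). Col4a1 per marker count is higher after DEX in each phenotype without overlap, whereas the Lamb2 and Hspg2 ratios of PS and AS overlap between saline and DEX. By median the marker sum itself is lower after DEX in PS and AS and higher in controls.

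Of the laminins, Lama3 and Lama4 fell in both stressed phenotypes and Lamb2 and Lama5 in AS. Lama3 encodes the alpha chain of the epithelial laminin 332. It gave 277, 283, 319 and 340.5 normalized counts in saline-treated controls and 239.6, 240.5, 251 and 257 after DEX. In PS the values were 272, 302, 303 and 306 with saline and 176, 191, 196 and 206 with DEX. In AS they were 215, 358, 367 and 369.6 with saline and 118, 161, 172 and 195 with DEX. All DEX libraries lay below all saline libraries in each of the 3 phenotypes, a separation in this direction that 4.32%, 4.57% and 5.02% of all genes showed in controls, PS and AS. The log2 differences were -0.30 ± 0.14 SE in controls (limma adjusted p = 0.327), -0.62 ± 0.14 SE in PS (adjusted p = 0.012) and -1.01 ± 0.14 SE in AS (adjusted p = 9e-05). Without the PS mouse 34 the difference in PS was -0.58 (adjusted p = 0.043), and without the AS mouse 44, whose 215 normalized counts were far below the other saline libraries, it was -1.19 in AS (adjusted p = 7.8e-07).

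Lama4, the alpha chain of the endothelial laminin 411, gave 324, 332, 345 and 439 normalized counts in saline-treated and 207, 235, 277 and 293 in DEX-treated PS animals. These groups did not overlap (log2 difference -0.51 ± 0.14 SE, limma adjusted p = 0.049), although the call was lost without mouse 34 (log2 difference -0.42, adjusted p = 0.179), mouse 62 (adjusted p = 0.186) or mouse 6 (adjusted p = 0.130). In AS, where the groups overlapped, the difference was -0.48 ± 0.14 SE (limma adjusted p = 0.053), and in controls it was -0.16 ± 0.14 SE (adjusted p = 0.693).

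Lamb2, a beta chain of vascular and synaptic laminins, gave 966, 1046, 1184 and 1189 normalized counts in saline-treated controls and 1079.8, 1333, 1396 and 1601 after DEX. In PS the values were 1096, 1103, 1185 and 1401 with saline and 743, 953, 1025 and 1162 with DEX. In AS they were 1074, 1143, 1503 and 1682 with saline and 761, 851, 865 and 951 with DEX, which did not overlap. The means after DEX were above saline in controls and below it in PS and AS. The log2 difference was 0.29 ± 0.14 SE in controls (limma adjusted p = 0.321), -0.31 ± 0.14 SE in PS (adjusted p = 0.318) and -0.64 ± 0.14 SE in AS (adjusted p = 0.0071).

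Lama5, the alpha chain of laminins 511 and 521 of mature vessels, fell in AS from 336, 437, 650.1 and 698 to 277, 286, 309 and 316 normalized counts without overlap (log2 difference -0.77 ± 0.19 SE, limma adjusted p = 0.017). In PS its difference was -0.29 ± 0.19 SE and in controls 0.04 ± 0.19 SE (limma adjusted p = 0.605 and 0.966). Lamc1, the gamma chain shared by most laminins of the brain, was called in no comparison and stood at 1012 ± 169 normalized counts (SD, n = 4) with saline and 911 ± 118 with DEX in AS. Its 95% interval of the log2 difference in AS was -0.37 to 0.08. Lamb1, named after its values were seen, fell in the average over the phenotypes and was called in no single phenotype (log2 -0.19 ± 0.07 SE, limma adjusted p = 0.095), and 7 of the 24 fits without 1 library kept the call. Lama2, Lamc3 and Lama1 were called in no comparison. In controls Lamc3, whose values are given after they were seen, stood at 226 ± 68.2 normalized counts (SD, n = 4) with saline and 355 ± 63.7 with DEX. The log2 differences of Lama1, an alpha chain of the meningeal basement membrane named after its values were seen, were 0.57 ± 0.31 SE in controls, -0.38 ± 0.31 SE in PS and -0.60 ± 0.31 SE in AS (limma adjusted p = 0.401, 0.705 and 0.320), and all 10 laminins had negative differences in AS.

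**Figure D4:**
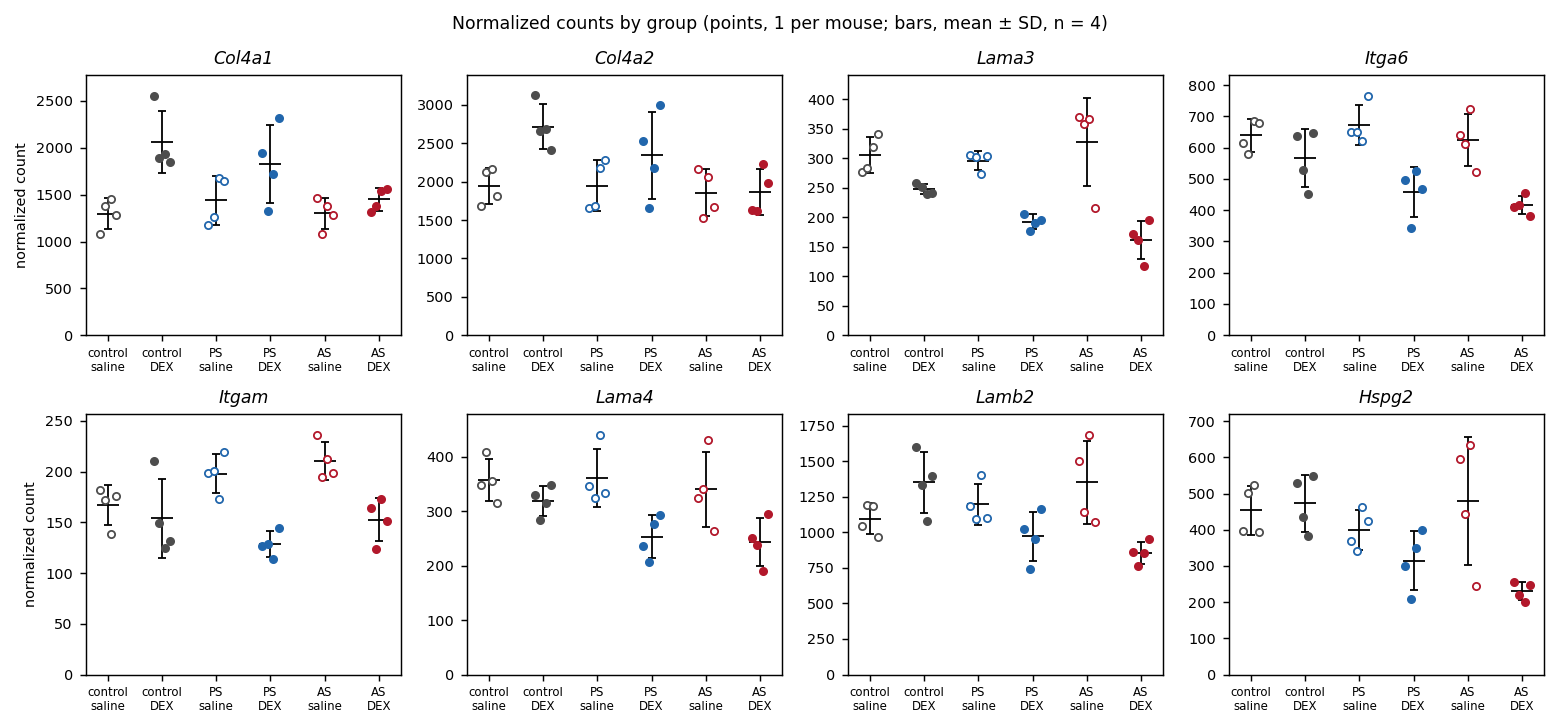
Normalized counts of 8 genes in the 6 groups (points, 1 per mouse; open, saline; filled, DEX; bars, mean ± SD, n = 4; axes start at 0). The DEX-treated controls lie above the saline-treated controls for Col4a1 and Col4a2, and the DEX libraries of Lama3 lie below the saline libraries in all 3 phenotypes.

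Among the partners, perlecan and agrin fell in AS. Hspg2 encodes perlecan, the heparan sulfate proteoglycan of basement membranes. Its values were 245, 444, 596 and 634 normalized counts with saline and 199.8, 221, 249 and 254 with DEX in AS, where the lowest saline library, that of mouse 44, lay among the DEX libraries. DEX-treated libraries stood at 0.51 of the saline level (log2 -0.97 ± 0.22 SE, limma adjusted p = 0.0086), and without mouse 44 it was -1.26 on the log2 scale (adjusted p = 0.00011). In PS the log2 difference was -0.37 ± 0.22 SE and in controls 0.06 ± 0.22 SE (limma adjusted p = 0.521 and 0.947). Hspg2 per summed endothelial markers ran from 0.0431 to 0.0946 with saline and from 0.0373 to 0.0728 with DEX in AS, so that it overlapped. Lama3, Lama4, Lamb2 and Itga6 per summed endothelial markers also overlapped between saline and DEX in PS and in AS. In controls the Lama3 ratio did not overlap (0.0426 to 0.0638 with saline and 0.0296 to 0.0422 with DEX). The part of the markers in these ratios was not tested.

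Agrn gave 5392, 6466, 7724 and 7967 normalized counts with saline and 4788, 5593, 5673 and 5918 with DEX in AS (log2 difference -0.31 ± 0.10 SE, limma adjusted p = 0.068). The groups overlapped, and without mouse 8 the log2 difference was -0.24 (adjusted p = 0.279). Nid1, which links laminin to collagen IV, was at 317 ± 72.3 and 218 ± 65.7 normalized counts (SD, n = 4) with saline and DEX in AS and was not called (log2 difference -0.56 ± 0.22 SE, adjusted p = 0.151). Sparc was not called in any phenotype, with a 95% interval of the log2 difference of -0.04 to 0.37 in controls and -0.25 to 0.16 in AS.

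Fn1 had wide spreads. Its values were 2177, 2316, 2851 and 3329 in saline-treated and 3100.0, 3691, 3890.2 and 4377 in DEX-treated controls, against 2125, 2997, 3446 and 4281 and 1790.0, 1931, 1953 and 2364 in AS. In PS they were 2172, 2479.7, 3241 and 3732 and 1007, 2298, 2628 and 3086, with mouse 34 the lowest of all libraries. The log2 differences of 0.51 ± 0.25 SE in controls, -0.45 ± 0.25 SE in PS and -0.64 ± 0.25 SE in AS did not pass the threshold (limma adjusted p = 0.343, 0.479 and 0.154). When mouse 34 was left out of the fit, the AS difference of -0.64 passed (adjusted p = 0.036), as it did without the saline-treated AS mouse 44 (log2 -0.82, adjusted p = 0.049).

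Of the 11 integrin subunits, Itga6 and Itgam fell in both stressed phenotypes and Itgb2 in AS. Itga6 forms laminin receptors and is well known from endothelial cells. It gave 622, 651, 651 and 765 normalized counts with saline and 344, 468, 496 and 524 with DEX in PS. In AS the values were 522, 611, 639 and 722 and 382, 411, 418 and 454. Neither phenotype had overlapping groups, and the log2 differences were -0.57 ± 0.12 SE in PS and -0.57 ± 0.12 SE in AS (limma adjusted p = 0.0078 and 0.0057). In controls the values were 578, 614, 677 and 686 and 453, 529, 636 and 647, which overlapped (log2 difference -0.19 ± 0.12 SE, limma adjusted p = 0.540). Without mouse 34 the PS difference was -0.43 (adjusted p = 0.040).

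Itgam gave 114, 126, 128 and 145 normalized counts in DEX-treated PS animals and 124, 151, 164 and 173 in DEX-treated AS animals, below all saline libraries of the same phenotype. The log2 differences were -0.62 ± 0.14 SE in PS and -0.47 ± 0.14 SE in AS (limma adjusted p = 0.010 and 0.051), and -0.14 ± 0.14 SE in controls (adjusted p = 0.731). Its partner Itgb2 was at 163, 172, 191 and 192 with saline and 119.7, 142, 149 and 164 with DEX in AS, with overlapping groups (log2 difference -0.33 ± 0.11 SE, limma adjusted p = 0.084). Of the 6 microglial markers, Cx3cr1, P2ry12 and Aif1 fell in PS (log2 -0.83, -0.69 and -0.90) and in AS (-0.73, -0.51 and -0.71), and P2ry12 and Aif1 fell in controls (-0.42 and -0.66). The others, Csf1r, Tmem119 and C1qa, were called in no phenotype, and the medians over the 6 were -0.09 in controls, -0.40 in PS and -0.36 in AS. The 6 microglial markers summed to between 6801 and 7327 normalized counts in saline-treated and between 5673 and 6126 in DEX-treated PS animals, and to between 6981 and 7907 and between 5461 and 6378 in AS. In controls the sums overlapped, at 6155 to 7243 with saline and 5730 to 7544 with DEX. Itgam per summed microglial markers was 0.0254 to 0.0317 with saline and 0.0199 to 0.0247 with DEX in PS without overlap. It overlapped in AS (0.0259 to 0.0299 and 0.0226 to 0.0271) and in controls (0.0212 to 0.0286 and 0.0197 to 0.0279), and the part of these markers in the result was not tested.

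Itgav, the alpha subunit with the highest level per kb, was at 2548 ± 172 and 2684 ± 148 normalized counts (SD, n = 4) in controls, 2679 ± 197 and 2406 ± 366 in PS, and 2461 ± 255 and 2539 ± 405 in AS, with saline and DEX. It was called in no comparison. Itgb8, which pairs with Itgav to release latent TGF-beta, gave 1902, 2009.8, 2026 and 2357 with saline and 1274, 1322, 1624 and 1785 with DEX in PS. These groups did not overlap, but the log2 difference of -0.48 ± 0.17 SE did not pass (limma adjusted p = 0.148). DESeq2 called it (adjusted p = 0.086). Itgb1, the beta subunit shared by most matrix-binding integrins, differed by -0.22 ± 0.09 SE in AS on the log2 scale (limma adjusted p = 0.169), with all DEX libraries below all saline libraries. Itga3, named after its values were seen, fell in the average over the phenotypes (log2 -0.14 ± 0.05 SE, limma adjusted p = 0.078), a call kept in 10 of the 24 fits that left out 1 library. The other subunits, Itga4, Itga7, Itga8 and Itgb5, were called in no comparison. Itga8, a receptor for fibronectin and nephronectin named after its values were seen, had AS groups without overlap (193, 207, 240.3 and 241 with saline and 160.2, 166, 182 and 186 with DEX, log2 difference -0.34 ± 0.15 SE, limma adjusted p = 0.216). Itgb5, a partner of Itgav, ranged 1.48-fold over the 24 libraries.

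Of the 17 collagens other than IV, Col26a1 fell in PS and AS and Col11a2, Col16a1, Col9a2 and Col9a3 in AS. Col26a1 gave 210.2, 216, 231 and 235 normalized counts with saline and 138, 148, 172 and 209 with DEX in PS, and 195, 222, 265 and 281 and 165, 169, 181 and 193 in AS. The groups did not overlap in either phenotype (log2 difference -0.43 ± 0.13 SE in PS and -0.43 ± 0.13 SE in AS, limma adjusted p = 0.055 and 0.043), and in controls the difference was 0.02 ± 0.13 SE (adjusted p = 0.976). The PS call was lost without any of the PS mice 2, 62, 6 and 52 (adjusted p 0.142 to 0.211). Col11a2, a chain of the minor fibrillar collagen XI, gave 507, 509, 713 and 844 with saline and 383, 383, 428 and 457 with DEX in AS (log2 difference -0.61 ± 0.15 SE, limma adjusted p = 0.012). Col16a1, a fibril-associated collagen, gave 483, 547, 587 and 660.1 and 322, 365, 386 and 482 (log2 difference -0.56 ± 0.15 SE, limma adjusted p = 0.027). Col9a2 and Col9a3, named after their values were seen, are chains of the same collagen IX and differed by -0.55 ± 0.17 SE and -0.39 ± 0.13 SE in AS (limma adjusted p = 0.057 and 0.088). Of these genes, Col11a2, Col16a1 and Col9a2 had groups without overlap in AS, and in all 12 of the 45 members did, against 5.02% of all genes.

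The chains of collagen I, the main product of fibroblasts, varied widely between mice. Col1a1 gave 431, 665, 846 and 986 normalized counts with saline and 192, 359, 371 and 705 with DEX in PS, and its log2 difference of -0.93 ± 0.32 SE did not pass (limma adjusted p = 0.124). Col1a2 differed by -0.45 ± 0.25 SE in PS and -0.41 ± 0.25 SE in AS (limma adjusted p = 0.467 and 0.414). Col6a1 and Col6a2, whose products join in the same microfibril, had ratios of Col6a1 to Col6a2 from 0.935 to 3.25 over the 24 libraries, the widest of the 5 subunit pairs read. Neither was called in any comparison. The transmembrane collagens Col25a1 and Col23a1, the fibril-associated Col12a1 and Col19a1, and the fibrillar Col5a1 and Col11a1 were called in no comparison either. Col19a1 was higher in all 4 DEX-treated controls (1162, 1254, 1272 and 1280.1) than in the saline-treated ones (599.9, 746, 953 and 1103), at a log2 difference of 0.58 ± 0.28 SE (limma adjusted p = 0.311). Col15a1, whose product lies at the outer face of vascular basement membranes, and Col8a2, named after its values were seen, fell in the average over the phenotypes (log2 -0.33 ± 0.12 SE and -0.56 ± 0.17 SE, limma adjusted p = 0.069 and 0.032). The call of Col15a1 was kept in 13 of the 24 fits without 1 library.

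Whether the DEX response differed between phenotypes was tested directly. For AS against control, 1 of 45 members, Lamb2, passed the threshold, where 0.348% of all genes did. Its log2 difference of differences was -0.93 ± 0.20 SE (95% interval -1.34 to -0.52, limma adjusted p = 0.074). The call was lost without any of the control mice 106, 107, 117, 101, 108 and 122 or the AS mice 8, 40, 38 and 42 (adjusted p 0.104 to 0.207), whereas without the AS mouse 44 the number of members called was 8. At an unadjusted p under 0.05 there were 20 members, against 13.5% of all genes, all of them with a lower response in AS. They included Fn1 (-1.15), Hspg2 (-1.03), Lama5 (-0.81), Lama3 (-0.71), Col4a1 (-0.50) and Col4a2 (-0.48), with limma adjusted p = 0.160, 0.156, 0.184, 0.131, 0.280 and 0.337. DESeq2 called more members here, among them Fn1, Hspg2, Lama3 and Lama5 beside Lamb2. Over all genes it called 439 where limma called 49.

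For PS against control 0 of 45 members and 0% of all genes passed by limma, with 12 members and 9.98% of all genes at an unadjusted p under 0.05, and edgeR and DESeq2 also called 0 members. The largest of the 12 by size was Col1a1 at -1.17 (limma adjusted p = 0.409). For AS against PS 0 of 45 members and 0% of all genes passed by limma, with 1 member, Col16a1 (-0.45 ± 0.21 SE, adjusted p = 1), and 2.44% of all genes at an unadjusted p under 0.05. No member thus passed a test of the difference in response between AS and PS, by edgeR or DESeq2 either. Both differences from control use the same 8 control libraries.

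Several markers of vascular cells fell in AS beside the laminins and partners. Of the 8 endothelial markers, 5 fell in AS, namely Pecam1 (log2 -0.69 ± 0.23, SE), Flt1 (-0.85 ± 0.21), Tek (-1.25 ± 0.25), Cdh5 (-0.74 ± 0.22) and Emcn (-0.72 ± 0.20). Tek fell in PS (-0.78 ± 0.25), and 0 of 8 were called by limma in controls, with 1, Ly6c1, at an unadjusted p under 0.05. The medians over the 8 were 0.15 in controls, -0.33 in PS and -0.70 in AS. In AS their summed count was 4693 to 7789 with saline and 3419 to 5358 with DEX. The PS sums were 4932 to 7072 and 3107 to 6924, and those of controls 5318 to 7226 and 5672 to 8699. The medians over the 8 mural markers were 0.36, -0.31 and -0.71, and Rgs5, Vtn, Acta2 and Tagln fell in AS. Of the 7 markers of leptomeningeal fibroblasts, Pdgfra and Slc6a13 rose in controls (log2 0.37 and 0.88) and Slc22a6 fell in AS (-0.99), with medians of 0.37, -0.59 and -0.59. Of the 3 measured markers of border macrophages, which also express Itgam, Pf4 fell in PS (-1.86 ± 0.44) and AS (-1.60 ± 0.44) and Lyve1 rose in controls (1.55 ± 0.20) and PS (0.73 ± 0.20). Of the 6 astrocyte markers, Aqp4 fell in PS and AS (log2 -0.53 and -0.49), Gfap fell in AS (-0.56) and Aldh1l1 rose in controls and PS (0.30 and 0.34). The 5 oligodendrocyte markers had medians of -0.31, 0.13 and 0.46. Mag fell in controls (-0.51), and 1 of the 5 rose and 0 fell in AS. In each of the lists of 5 pyramidal neuron and 5 GABAergic neuron markers at most 1 gene was called in any phenotype, and the 4 blood markers had medians of 0.40, -0.75 and -0.16 with 0 called by limma and 2 at an unadjusted p under 0.05, both in PS. The part of these markers in the results of the members was not tested.

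The wider pathway was read over whole lists of genes. Beside these lists and the marker lists, 4.03% of all genes were called higher and 2.46% lower in controls. The shares were 2.74% and 2.62% in PS and 3.82% and 4.95% in AS. Of 20 measured enzymes that process or crosslink collagen, 1 rose and 0 fell in controls, 1 rose and 3 fell in PS, and 1 rose and 6 fell in AS. The gene that rose was Pcolce2, an enhancer of procollagen cleavage, in all 3 phenotypes (log2 0.57, 0.73 and 0.79 in controls, PS and AS). Serpinh1, the collagen chaperone, fell in PS (-0.65 ± 0.17) and AS (-0.86 ± 0.17), as did Crtap, which serves proline hydroxylation (-0.57 and -0.59), and the crosslinking enzyme Loxl1 (-0.71 and -0.80).

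Of 15 matrix proteases, 1 rose and 2 fell in controls, 1 fell in PS and 3 fell in AS, with Adamts1 falling in each (log2 -0.44, -0.62 and -0.65) and Mmp14 (-0.52) and Mmp28 (-0.66) in AS. Of 8 protease inhibitors, 3 rose in controls and 1 in each of PS and AS. Timp4 rose in all 3 (log2 0.46, 0.33 and 0.32) and Timp3, the matrix-bound inhibitor, in controls (0.67 ± 0.13).

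Of 22 adaptors and signalling proteins of integrins, 1 rose and 1 fell in controls, 1 rose and 2 fell in PS, and 1 rose and 3 fell in AS. Ilk, the integrin-linked kinase, rose in all 3 phenotypes (log2 0.45, 0.41 and 0.39), whereas Fermt2, an activator of integrins, fell in PS (-0.29) and AS (-0.29) and Tln1, the talin gene, in AS (-0.44 ± 0.09). Of 13 other matrix receptors, 3 rose in controls, 1 rose and 1 fell in PS, and 1 rose and 3 fell in AS. Sdc4, a heparan sulfate receptor at focal adhesions, rose in all 3 (log2 1.08, 0.80 and 0.77), and Bcam, a receptor of the Lama5 chain, fell in AS (-0.78 ± 0.16).

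Of 16 genes of TGF-beta and its latent complexes, 3 rose in controls, 1 rose and 4 fell in PS, and 1 rose and 6 fell in AS. Tgfb1 fell in PS (-0.47 ± 0.11) and AS (-0.67 ± 0.11), as did Tgfb2 (-0.42 and -0.45), Ltbp1, which anchors latent TGF-beta in the matrix (-0.53 and -0.59), and Lrrc32 (-0.70 and -0.73). Nrros, which holds latent TGF-beta on microglia, rose in all 3 (log2 1.13, 0.72 and 0.46). Of 7 lecticans, tenascins and link proteins, Hapln2, the link protein of nodes of Ranvier, rose in PS (0.89 ± 0.22) and AS (1.01 ± 0.22), Bcan fell in AS (-0.28) and Hapln4 fell in controls (-0.24).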

How the data were processed

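Poly(A) RNA of frozen prefrontal cortex was sequenced from stranded paired-end libraries. The authors trimmed reads with fastp 0.20.1, aligned them with HISAT2 2.2.1 to GRCm38 (mm10), counted them per gene with featureCounts (Subread 2.0) and divided them by 1 DESeq2 1.36.0 size factor per library, and this normalized signal is what the authors deposited. Multiplying back gave whole reads for 100% of values (tolerance 0.01 read). The methods state a minimum of 10 reads, which 13161 of the 14074 genes reached in each library. The 3 tables of the authors' comparisons, with fold changes and p-values, were not used.

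Values were tested as log2(normalized count + 1) with the moderated linear model of limma 3.58.1 (R 4.3.3), whose eBayes step followed the mean-variance trend, with 1 mean per group over the 24 libraries. A gene was called at a Benjamini-Hochberg adjusted p under 0.1 over all genes, and fold changes on this scale understate those of low genes. The 10 comparisons were 3 of stress in saline-treated animals, the DEX response in each of 3 phenotypes and on average, and 3 differences between responses. Residual spread is that between mice of a group, and no 2 libraries of a group agreed within sampling noise. The fits were also run on simulated counts with known changes planted in the DEX-treated AS group alone, and the outcome is not given here. That run does not bear on differences smaller than those planted. Alternatives were edgeR 4.0.16 and DESeq2 1.42.0 on recovered reads, TMM scaling, a pseudocount of 8, filters on low counts, library size as a covariate, a fit of the groups compared alone, and leaving out each library.

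The members and all gene lists were chosen with earlier results of these data known. Genes were named where they were called (the 8 with the smallest adjusted p where more were), where they were among the 2 highest of a role group, where they were partners, or where they formed a subunit pair. Dep1 and dep2 in the library names are PS and AS by the series' design text. Gene coordinates and exonic lengths came from GENCODE on GRCm38, promoters and their sequences from RefSeq on GRCm38.p6. Depth limits members with few reads most, since counting error is then largest. Of the 45 members, 1 is not named here or shown in the figures but is part of the counts and medians.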

Additional observations from a re-analysis of the deposited data

Results flagged for a closer look

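In groups of 4 mice a library was singled out where its gap to the nearest other library exceeded Dixon's 95% critical share of the range of the group. Chance gives this in about 1 of 20 groups, and 180 groups of named genes were tested. About as many flags as are listed here would come by chance at that rate. The share of the range was 0.867 for Col4a1 and 0.906 for Col11a2 in the DEX-treated control mouse 101, both its highest values. It was 0.875 for Col12a1 and 0.932 for Col19a1 in the DEX-treated PS mouse 34, both its lowest. Lama3 was lowest in the saline-treated PS mouse 62 (0.894) and in the saline-treated AS mouse 44 (0.923). Agrn was lowest in the DEX-treated control mouse 112 (0.896), Col23a1 highest in the saline-treated control mouse 117 (0.887) and Col1a1 highest in the DEX-treated AS mouse 72 (0.889).

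The DEX response of Lamb2 differed between AS and control animals by -0.93 on the log2 scale in the test of the difference itself (limma adjusted p = 0.074). The call was kept in 14 of the 24 fits without 1 library and in 6 of the 8 other settings.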

How the results depend on the processing

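The sign of each named member's called difference was kept under every alternative, and the median log2 difference of all genes stayed within 0.0114 of 0 in each. Members called after DEX in controls numbered 4 when only the groups compared were fitted and 1 to 2 when 1 library was left out, against 2. With 1 library left out the number was 3 to 8 in PS (against 5), 6 to 17 in AS (against 14), 10 to 18 in the average over phenotypes (against 16; 10 without the control mouse 112) and 0 to 8 for the difference between AS and control (against 1). That last number was 0 with genes of a mean of at least 100 normalized counts, 0 with library size as a covariate, 6 with DESeq2 and 2 when only the groups compared were fitted, and the cause was not tested. The 6 included Fn1, Hspg2, Lama3 and Lama5 beside Lamb2. Calls in stress comparisons stayed at 0 members throughout.

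Over all genes, edgeR called 212, 26, 862, 763, 1330 and 77 and DESeq2 431, 99, 1006, 903, 1614 and 439 for PS and AS against control, DEX in control, PS and AS, and the difference between AS and control, where limma called 213, 22, 913, 755, 1234 and 49. DESeq2 also called 11 genes in AS against PS and 23 in the difference between PS and control, where limma called 0. Fitting only the groups compared gave 523 for PS against control, 753 for DEX in AS and 82 for the difference between AS and control, and 1 for that between PS and control. With library size as a covariate PS against control gave 134 and the AS difference 7. Filters gave 9 (at least 10 reads) and 5 (mean of at least 100) for AS against control and 1 (mean of at least 100) for the AS difference. A pseudocount of 8 gave 9 and TMM scaling 3 for the difference between PS and control.

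No paired analysis was possible because the mouse numbers in the labels do not recur between groups.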
